A study of Mus musculus with 2 samples.

Results

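The fibroblasts described here are the collagen-rich stromal cells of abraded mouse peritoneal wall bearing ovarian tumor that lack Pi16, Car3 and Acta2 transcripts. They number 158 of 15156 kept cells, 57 of 8770 in the control IgG library and 101 of 6386 in the Activin A antibody library. A cell was a member if it held at least 20 unique molecular identifiers (UMIs, single counted transcripts) of Col1a1, Col1a2, Col3a1 and Dcn together, at most 2 of Acta2 and Tagln, at most 1 of Pi16 and Car3, at most 1 of the leukocyte gene Ptprc, at most 1 of the mesothelial genes Msln, Upk3b and Lrrn4, at most 1 of the endothelial genes Pecam1 and Cdh5, and under 10 of Dlk1, Hmga2 and Cdkn2a, which are abundant in the cancer cells of this model. The cells were thus chosen by these measured values. The low levels of all the limited genes and the high collagen levels are their definition and not a finding.

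Both groups were female C57BL/6 mice, 6 to 8 weeks old per the labels, with an abraded peritoneal wall and intraperitoneal SO cells, a syngeneic ovarian cancer line of p53-/-, Myc and Hras genotype. From the next day they received daily intraperitoneal control IgG (7 mice per the labels) or Activin A neutralizing antibody (8 mice) for 10 days, and the tumors at the abrasion were pooled into 1 library per group without a sort for cell type. The study's text and the labels differ on the numbers of mice, the days of treatment and the 10x chemistry. With 1 pooled library per group no test was possible, and the antibody cannot be told apart from any other difference between the libraries. Intervals are 95% and cover counting error only. They are too narrow where 1 cell holds many of a gene's UMIs.

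Fibroblasts make and turn over the collagens, elastic fibres and proteoglycans of connective tissue. In the peritoneal wall they lie below the mesothelium and between muscle layers, where tissue-resident types differ from one another in adhesion molecules, growth factors and lipid-handling enzymes. Pi16 marks adventitial fibroblasts and Acta2 and Tagln mark contractile myofibroblasts, which wounds and tumors recruit. Activin A, a dimer of Inhba products, acts through activin receptors and SMAD2 and SMAD3, and can promote myofibroblast formation.

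The fibroblasts formed a larger part of the cells in the antibody library. They made up 0.650% of kept cells with control IgG (interval 0.493% to 0.841%) and 1.58% with the antibody (1.29% to 1.92%), a log2 ratio of 1.28 (0.80 to 1.78). Among all cells that passed the collagen, leukocyte, endothelial and cancer limits, they were 57 of 212 (26.9%, 21.0% to 33.4%) with control IgG and 101 of 237 (42.6%, 36.2% to 49.2%) with the antibody. On the log2 scale that is a ratio of 0.66 (0.18 to 1.16). The neighbouring Pi16 or Car3 cells were 61 and 79 of these gated cells, a log2 ratio of 0.21 (-0.29 to 0.72). The Acta2 or Tagln cells were 47 and 27 of them, a log2 ratio of -0.96 (-1.70 to -0.25), and the cells with mesothelial genes 47 and 30, a log2 ratio of -0.81 (-1.52 to -0.12). Since the parts sum to the gate, a larger share of one goes with a smaller share of another. Of all kept cells, the whole gate was also larger with the antibody, a log2 ratio of 0.62 (0.35 to 0.89), as were the Pi16 or Car3 cells at 0.696% and 1.24%, a ratio of 0.83 (0.33 to 1.34). On that denominator the ratios of the Acta2 or Tagln cells (-0.34, -1.08 to 0.37) and of the cells with mesothelial genes (-0.19, -0.90 to 0.50) spanned 0.

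**Figure D1:**
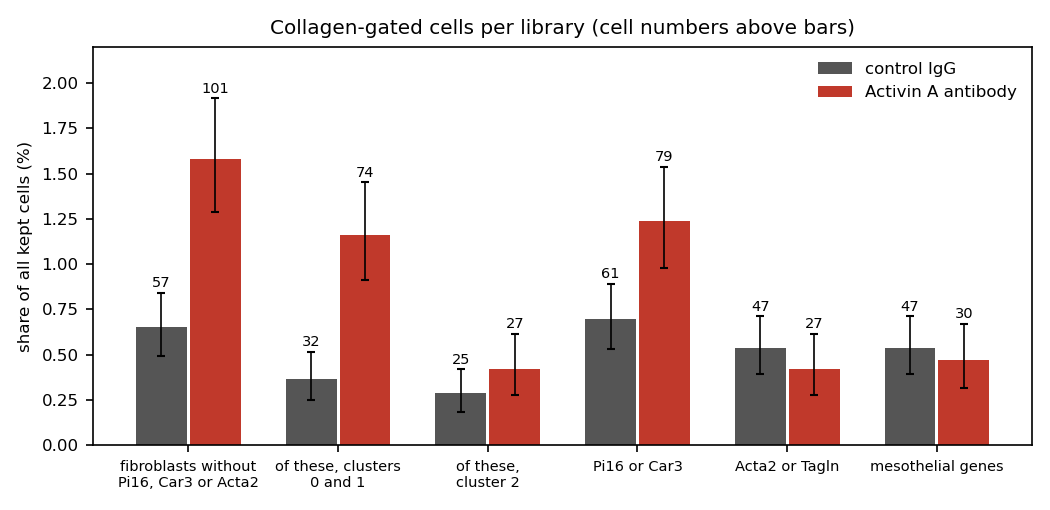
Share of all kept cells (%) in the 4 parts of the collagen gate and in the clusters of the fibroblasts without Pi16, Car3 or Acta2, for control IgG (grey) and the Activin A antibody (red), with exact 95% binomial intervals as error bars. The 101 fibroblasts of the antibody library stand at 1.58% of its cells and the 57 of the control library at 0.650%. The intervals cover counting error only and, with 1 pooled library per group, give no test between the groups.

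Median depth was similar in the fibroblasts of both libraries, but not in all collagen-gated cells. The median cell held 7477 UMIs with control IgG (range 3411 to 25637) and 7055 with the antibody (1873 to 47396), and the summed members held 554056 and 975461 UMIs. Mitochondrial transcripts took 2.53% and 2.13% of their UMIs. In the whole collagen gate the median was 15574 UMIs with control IgG and 10041 with the antibody, and in Pi16 or Car3 cells 10754 and 7693. Shallow cells pass upper limits on raw UMIs more easily, and the part of depth in the shares was not tested. With the rule applied again to cells thinned to 5000 UMIs, the log2 ratio of the share of gated cells was 0.48. No member barcode occurred in both libraries. Collagen UMIs per member ran from 61 through a median of 304 to 1772 with control IgG, and from 45 through 227 to 2204 with the antibody, so no cell lay near the limit of 20. At the limit on Acta2 and Tagln, 3 and 4 cells stood just inside, with 2 UMIs, and 4 and 2 just outside, with 3 UMIs. At the limit on Pi16 and Car3, 9 and 18 cells stood just inside, with 1 UMI, and 4 and 14 just outside, with 2.

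General fibroblast genes were abundant in both libraries. Pdgfra, the receptor for platelet-derived growth factor that marks most resident fibroblasts, stood at 509 counts per 1000000 UMIs (CPM) with control IgG and 444 with the antibody, against 7.45 and 9.92 in cells outside the collagen gate. The proteoglycan Lum stood at 1558 and 1220 CPM, with a UMI in 55 of 57 and 96 of 101 cells, and Dpt, which encodes dermatopontin, at 1283 and 1134 CPM.

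The 5 genes given as markers of the class were read next, with positions from the GENCODE annotation of GRCm38. Lsamp (chromosome 16, 39984361 to 42181679, plus strand), a membrane-anchored adhesion molecule of the immunoglobulin family, stood at 417 CPM with control IgG and 643 with the antibody, a log2 ratio of 0.62 (0.40 to 0.85). Hmcn2 (chromosome 2, 31314415 to 31460738), a large matrix protein of the hemicentin family, stood at 321 and 394 CPM, a log2 ratio of 0.29 (0.03 to 0.56). Abca8a (chromosome 11, 110025634 to 110095978), a lipid transporter, stood at 440 and 480 CPM, and Inmt (chromosome 6, 55170626 to 55175043), a methyltransferase of small amines, at 143 and 149 CPM. Their log2 ratios were 0.12 (-0.10 to 0.35) and 0.06 (-0.35 to 0.47). Cilp (chromosome 9, 65265180 to 65280605), a matrix protein known from cartilage, stood at 666 and 825 CPM, a log2 ratio of 0.31 (0.13 to 0.49).

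The markers were read from only some of the cells. After thinning every cell to 2000 UMIs, a Lsamp UMI was left in 23 of 57 cells (40.4%, 27.6% to 54.2%) with control IgG and in 53 of 99 (53.5%, 43.2% to 63.6%) with the antibody, where 2 shallower cells were left out. Without thinning the shares were 45.6% and 63.4%. In T cells, which should lack the gene, the thinned shares were 0.0598% and 0.132%, at unthinned median depths of 5172.5 and 4452.5 UMIs.

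Clustering of the 158 cells, without the genes of the rule, showed where the markers lay. Cluster 0 (16 cells with control IgG and 38 with the antibody) was led by Vtn, Myoc, Astn2, Adamtsl3 and Arhgap24, and cluster 1 (16 and 36 cells) by Hs3st5, Ano4, Fmod, S100g and Vipr2. Cluster 2 (25 and 27 cells) was led by Saa3, Ccl2, Chl1, Slpi and Wnt4. Leading genes describe the clusters made from them and were not tested. Lsamp stood at 1145 and 1063 CPM in cluster 0 and at 1019 and 1457 CPM in cluster 1, but at 8.74 and 45.5 CPM in cluster 2. Hmcn2 stood at 755 and 768 CPM in clusters 0 and 1 together and at 55.3 and 45.5 CPM in cluster 2, and Inmt at 332 and 300 CPM against 26.2 and 7.91. In clusters 0 and 1 together the Lsamp log2 ratio was 0.25 (0.03 to 0.47), smaller than in the pooled class, where the mix of clusters differed between the libraries. The markers describe the 106 cells of clusters 0 and 1, and the 52 cells of cluster 2 go against them.

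**Figure D2:**
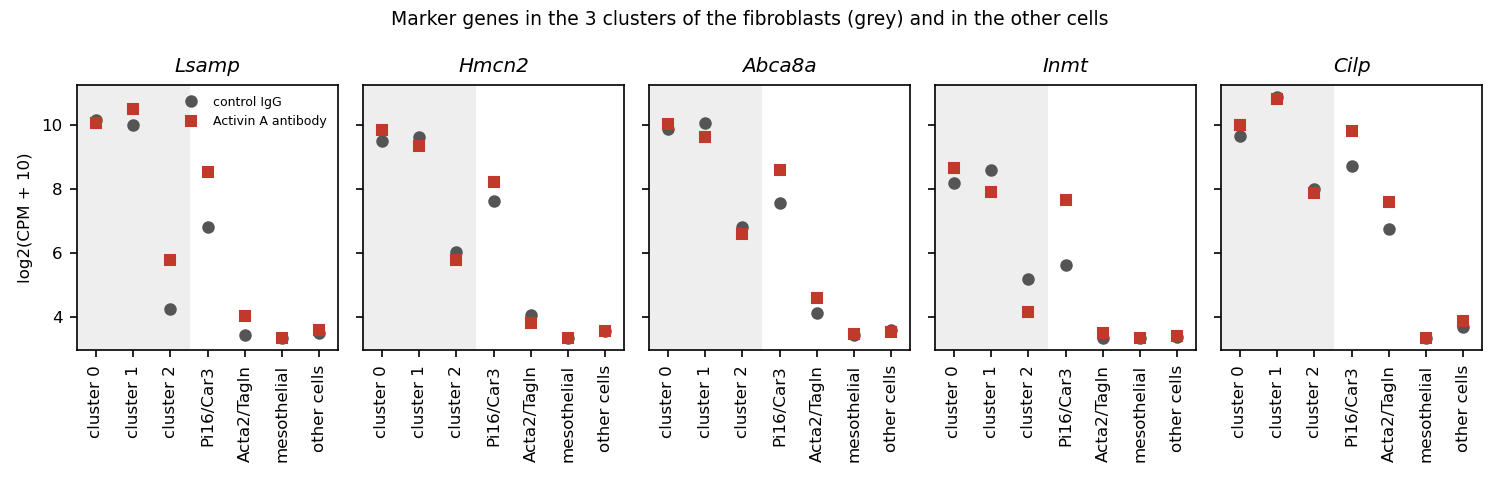
Levels of the 5 marker genes, as log2 of CPM plus 10, in clusters 0, 1 and 2 of the fibroblasts (grey band) and in the Pi16 or Car3, Acta2 or Tagln, mesothelial and remaining cells, with 1 point per library. All 5 genes were high in clusters 0 and 1 in both libraries, and Lsamp was at 8.74 and 45.5 CPM in cluster 2, below its 102 and 360 CPM in Pi16 or Car3 cells.

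Cluster 2 cells were deeper, with medians of 13062 and 17256 UMIs against 6095 and 5672 in clusters 0 and 1, and they gave 62.0% and 51.8% of all member UMIs. Pooled levels of the class are thus weighted toward them. A division into 4 clusters split them into 38 cells (23 with control IgG and 15 with the antibody) led by Cxcl9, Fabp4, Cmah, Ctla2a and Cthrc1, and 14 cells (2 and 12) led by Slpi, Ccl2, Tdo2, Tmem108 and Dmkn. The 14 cells held 7.65% of member UMIs with control IgG and 30.2% with the antibody. In their 12 antibody cells Wt1 stood at 207 CPM, Krt19 at 187 CPM and Krt8 at 115 CPM, keratins and a transcription factor that mesothelial cells use, while Lsamp, Hmcn2, Abca8a and Inmt had no UMI. Pdgfra stood at 149 CPM, Lum at 431 CPM and Dpt at 122 CPM there, against 611, 1656 and 1720 CPM in clusters 0 and 1 of the same library. Whether these 14 cells belong with the fibroblasts was not tested, and values without them are given below.

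The larger share in the antibody library lay mostly with the Lsamp-rich cells. Clusters 0 and 1 together were 32 of 8770 cells (0.365%, 0.250% to 0.515%) with control IgG and 74 of 6386 (1.16%, 0.911% to 1.45%) with the antibody. The log2 ratio was 1.67 (1.05 to 2.31). Cluster 2 was 0.285% and 0.423% of the cells, a log2 ratio of 0.57 (-0.27 to 1.41). Its 38-cell part was 0.262% and 0.235% (-0.16, -1.20 to 0.84) and the 14 cells were 0.0228% and 0.188% (3.04, 0.88 to 6.24). Of the members, the 38-cell part had a ratio of -1.44 (-2.49 to -0.44). Cluster 2 held 43.9% of the members with control IgG and 26.7% with the antibody, and the interval of that log2 ratio (-0.71, -1.55 to 0.13) spans 0. A clustering without chemokine, complement, interferon, MHC and immediate-early genes gave nearly the same sizes, with 25 and 28 cells in the cluster that matches cluster 2.

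Against the other collagen-gated cells, 189 of 4941 genes with at least 50 UMIs in the class (3.83%) were at least 2-fold higher in both libraries and 31 (0.627%) at least 2-fold lower, on the scale of CPM plus 10. The rule used these cells, and the minimum of 50 UMIs in the class itself keeps out genes that are low in it, so these numbers and the list counts below only describe the class and their split between higher and lower means nothing by itself. Lsamp led, with log2 ratios of 3.68 with control IgG and 2.43 with the antibody, followed by Ano4, Chrm3, Ldb2, Fbln7, Mamdc2, Cdh13, Lepr, Hmcn2, Hs3st5, Sparcl1 and Frmpd4. Chrm3, a muscarinic acetylcholine receptor, stood at 125 and 85.1 CPM against 3.38 and 9.46 in the other gated cells, and the atypical cadherin Cdh13 had log2 ratios over them of 2.80 and 2.14.

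Several of these genes were uneven within the class. Lepr, the leptin receptor, was read at 200 and 120 CPM in cluster 1 and had no UMI in clusters 0 and 2. Ano4, a calcium-dependent lipid scramblase, stood at 419 and 388 CPM in cluster 1 and at 37.9 and 39.2 CPM in cluster 0, while Chrm3 stood at 312 and 328 CPM in cluster 0 and at 9.52 and 3.76 CPM in cluster 1. Myoc, the myocilin gene, stood at 2329 and 1945 CPM in cluster 0 and at 971 and 670 CPM in cluster 1. Each order was the same in both libraries, and describes clusters that were made from these genes.

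By function, lipid, retinoid and detoxification genes had 11 of 31 measured genes at least 2-fold higher in both libraries (Abca6, Abca8a, Abca8b, Inmt, Adh1, Apod, Gstt1, Gpx3, Fmo1, Cyp2f2 and Selenop). Apod, a lipid carrier, had log2 ratios of 1.95 and 1.98. Of growth factors and their receptors and binding proteins 8 of 26 passed, among them Igf1, Fgf7, Angptl1 and Igfbp3, and of bone morphogenetic protein, Wnt and hedgehog modulators 7 of 20, among them the secreted antagonists Bmper, Sfrp1 and Dkk2. Small leucine-rich proteoglycans had the larger share of 5 of 9 (Lum, Fmod, Ogn, Podn and Ecm2), fascia, tendon and perineural genes 6 of 14 (Fmod, Lsamp, Negr1, Cdh13, Cygb and Entpd2), basement membrane genes 4 of 15 (Col4a1, Col4a2, Lama2 and Hmcn2) and fibrillar collagens 0 of 13.

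Between the libraries, the pooled fibroblasts had lower median ratios for interferon-inducible, antigen presentation and chemokine genes with the antibody, and higher ones for immediate-early genes and elastin. In clusters 0 and 1 the median log2 ratios of the lower lists were -0.17, -0.20 and -0.06 in this order. These rest on only 9, 5 and 11 measured genes, against 26, 15 and 28 in the class, so they are not like for like. Of 4941 genes, 57 (1.15%) were at least 2-fold higher and 61 (1.23%) at least 2-fold lower with the antibody, and the median gene had a log2 ratio of 0.01. A short gene list with 0 genes past the limit is near these shares. Each cell set has its own measured genes. The minimum of 50 UMIs is a sum over both libraries, which differ in UMIs, as in clusters 0 and 1 with 210650 and 469785. Genes high in the library with more UMIs reach it more easily. The split between higher and lower thus partly follows from the minimum and means nothing by itself. This limit also holds for the single genes named between the libraries. More genes passed in cluster 2, with 94 of 2914 genes (3.23%) higher and 145 (4.98%) lower. Cluster 2 held the 14 cells in unequal parts, and in its 38-cell part 64 of 1733 genes (3.69%) were higher and 99 (5.71%) lower. In clusters 0 and 1 41 of 2414 (1.7%) were higher and 19 (0.787%) lower. Immediate-early and heat shock genes went the other way, with 7 of 24 higher in clusters 0 and 1 and 3 of 25 in cluster 2. Without the 14 cells 58 of 4104 genes (1.41%) were higher and 84 (2.05%) lower, and in the Pi16 or Car3 cells 50 of 4793 (1.04%) and 78 (1.63%). All these comparisons share the same 2 libraries.

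Interferon-stimulated genes stood lower with the antibody. Of 26 measured, 10 were at least 2-fold lower and 0 at least 2-fold higher (Irf7, Ifitm1, Gbp4, Gbp7, Irgm1, Iigp1, Ifi47, Psmb8 and Psmb9 were among the lower genes), and their median log2 ratio was -0.71. Iigp1, an interferon-induced GTPase that attacks the vacuoles of intracellular parasites, stood at 697 CPM with control IgG and 230 CPM with the antibody, a log2 ratio of -1.60 (-1.85 to -1.36), with a UMI in 36 and 42 cells. Its log2 ratio was -0.75 (-1.16 to -0.34) in clusters 0 and 1 and -2.04 (-2.38 to -1.72) in cluster 2. Ifi47, another GTPase of this kind, went from 119 to 26.7 CPM, with log2 ratios of -2.05 (-3.62 to -0.62) and -2.04 (-2.88 to -1.26) in these cell sets. Gbp4 went from 75.8 to 14.4 CPM and Gbp6 from 88.4 to 20.5 CPM, both guanylate-binding proteins, and AW112010, an interferon-inducible transcript, from 522 to 127 CPM. For Gbp4 the log2 ratio was -0.16 (-2.96 to 3.31) in clusters 0 and 1, from 2 and 4 UMIs, and -2.56 in cluster 2. Those of Gbp6 and AW112010 in clusters 0 and 1 were -0.16 (-1.84 to 1.74) and -0.47 (-0.99 to 0.06), and Gbp6 was at -0.94 without the 5 deepest members of each library.

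The same list had a median of -0.17 over 9 measured genes in clusters 0 and 1, -1.04 over 23 in cluster 2, -0.85 over 26 in Pi16 or Car3 cells and -0.03 over 30 in cells outside the collagen gate. It was -0.22 over 25 in Acta2 or Tagln cells and 0.41 over 25 in cells with mesothelial genes, where 22 of 25 were above 0. In outside cells Iigp1 stood at 103 and 92.5 CPM and Ifi47 at 70.2 and 61.0 CPM.

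Antigen presentation genes were lower in value for 15 of 15 measured genes, 6 of them at least 2-fold, with a median log2 ratio of -0.82. The class I heavy chain gene H2-K1 went from 3207 to 1816 CPM and B2m, its light chain, from 3175 to 2133 CPM, log2 ratios of -0.82 (-0.92 to -0.73) and -0.57 (-0.67 to -0.48). In clusters 0 and 1 these ratios were -0.23 and -0.12. Class I genes are near-identical copies whose reads can be split among them, so single class I values are uncertain. The class II genes H2-Eb1 and H2-Aa went from 348 to 70.7 CPM and from 312 to 65.6 CPM, and Cd74, the class II invariant chain, from 931 to 287 CPM. In clusters 0 and 1 the log2 ratio was -0.57 for H2-Eb1 and 0.065 for H2-Aa. Class II UMIs lay in few cells, since 75 of the 193 control UMIs of H2-Eb1 and 71 of the 173 of H2-Aa came from 1 cell each. In cells outside the gate Cd74 stood at 4043 and 1801 CPM and H2-Eb1 at 1253 and 627 CPM, also lower with the antibody. In members with no UMI of the excluded genes, Ptprc included, the log2 ratios of H2-Eb1 and H2-Aa were -0.96 and -1.02, and without the cells of highest Scrublet (doublet) score they were -1.61 and -1.49, against -2.30 and -2.25 in all members. They were -3.18 and -2.94 without the 14 cells, where 9 of the 15 genes of the list were at least 2-fold lower, with a median of -1.25. In Pi16 or Car3 cells 10 of 15 were at least 2-fold lower, with a median of -1.06. The list median was -0.60 over 16 in Acta2 or Tagln cells, -0.17 over 17 in cells with mesothelial genes and -0.21 over 20 outside the gate.

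Among chemokines, cytokines and inflammatory mediators, 11 of 28 measured genes were at least 2-fold lower and 2 at least 2-fold higher, with a median log2 ratio of -0.62. The median was -0.06 over 11 measured in clusters 0 and 1, of which 3 were lower (Cxcl9, Cxcl12 and Cxcl14). It was -0.63 over 26 in Pi16 or Car3 cells and -0.08 over 26 in Acta2 or Tagln cells. In cells with mesothelial genes it was -0.09 over 23, and outside the gate 0.02 over 33. Without the 14 cells 9 of 24 were lower and 1 higher, with a median of -0.60. Cxcl12 and Cxcl14 were not among those 9. Cxcl9, an interferon-inducible attractant of T cells, went from 1361 CPM (1265 to 1462) to 82.0 CPM (65.0 to 102), a log2 ratio of -4.05 (-4.40 to -3.72). The ratio was -2.00 with cells thinned to 5000 UMIs and -7.61 in cells with no UMI of the excluded genes. For every 5000-UMI value, shallower cells were left out and the rule was applied again to the thinned counts. Such values thus describe another set of members and not the same cells at equal depth. A Cxcl9 UMI was found in 23 of 57 cells with control IgG and in 8 of 101 with the antibody, but 345 of the 754 control UMIs came from 1 cell. After thinning to 2000 UMIs, 14 of 57 cells (24.6%) and 2 of 99 cells (2.02%) kept one, and T cells 0.797% and 0.342%. Cxcl9 was lower with the antibody in clusters 0 and 1 (252 and 6.39 CPM, from 53 and 3 UMIs), in cluster 2 (2041 and 152 CPM), in Pi16 or Car3 cells (521 and 200 CPM) and outside the gate (105 and 38.9 CPM).

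Ccl8, which attracts monocytes, went from 249 to 46.1 CPM, a log2 ratio of -2.43, with -2.44 in Pi16 or Car3 cells. In the fibroblasts its ratio was -1.26 without the 5 deepest members of each library and -1.48 with cells thinned to 5000 UMIs. Ccl5, a T cell product outside this list, went from 166 to 41.0 CPM in the fibroblasts and stood at 3705 and 3868 CPM outside the gate. Its log2 ratio was -2.02, and -4.01 with free RNA subtracted. Cxcl12 and Cxcl14, chemokines that resting fibroblasts make, were lower in both cell sets. Cxcl12 went from 439 to 212 CPM, with log2 ratios of -1.09 (-1.60 to -0.59) in clusters 0 and 1 and -0.92 (-1.25 to -0.59) in cluster 2. Cxcl14 went from 401 to 175 CPM, with ratios of -1.52 and -0.95 in the same order. In the 38-cell part of cluster 2 the ratios were smaller, -0.40 (-0.79 to -0.02) for Cxcl12 and -0.29 (-0.78 to 0.19) for Cxcl14. The 2 higher genes were Ptgs1 (10.8 and 72.8 CPM), a cyclooxygenase, and Lcn2 (14.4 and 55.4 CPM), an iron-siderophore binder. Without the 14 cells the log2 ratio of Ptgs1 was -0.83 (-3.60 to 1.74), and that of Lcn2 was 5.20 (2.66 to 10.54) from 1 and 49 UMIs, with 41 in 1 cell.

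**Figure D3:**
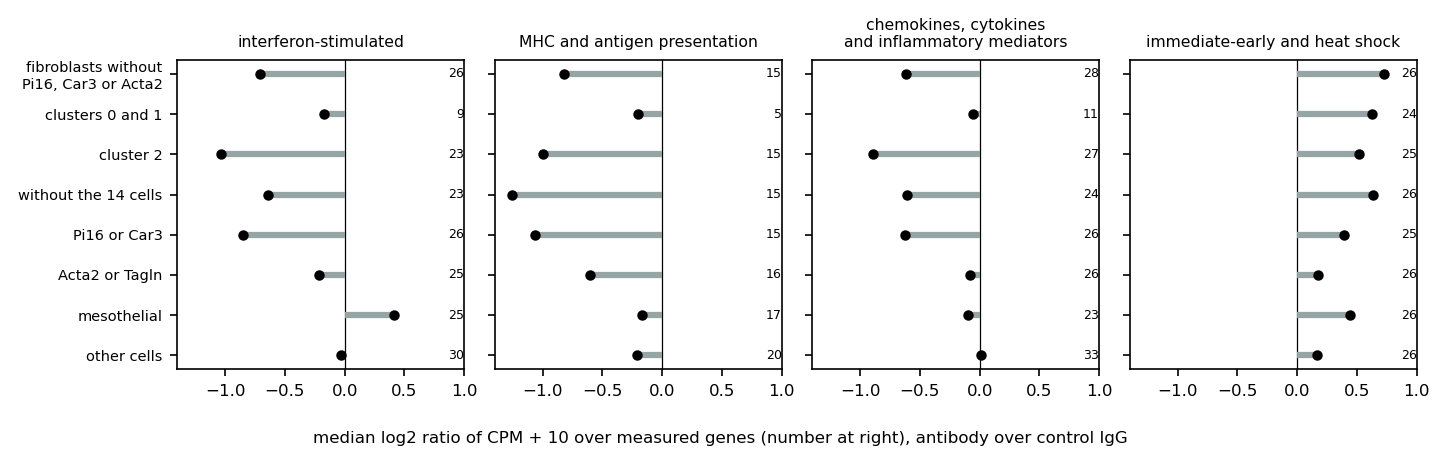
Median log2 ratio of CPM plus 10, Activin A antibody over control IgG, of 4 gene lists in the fibroblasts without Pi16, Car3 or Acta2, in cell sets within them and in other cells, with the number of measured genes at the right of each row. Interferon and antigen presentation medians were -0.71 and -0.82 in the class, over 26 and 15 genes. They were -0.17 and -0.20 in clusters 0 and 1, over only 9 and 5 genes. The immediate-early median was 0.73 in the class, over 26 genes, and 0.63 in clusters 0 and 1, over 24. Medians over different genes are not like for like.

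Immediate-early and heat shock genes, which cells switch on within minutes of a stimulus, stood higher with the antibody. Of 26 measured, 7 were at least 2-fold higher and 0 at least 2-fold lower (Fosb, Egr1, Atf3, Nr4a1, Klf4, Socs3 and Hspb1), with a median log2 ratio of 0.73. Egr1 went from 328 to 781 CPM, a log2 ratio of 1.25 (1.01 to 1.49), with a UMI in 42 of 57 and 90 of 101 cells and at most 25 and 29 UMIs in a cell. Its ratio was 1.48 (1.14 to 1.84) in clusters 0 and 1, 0.79 (0.45 to 1.14) in cluster 2, 1.34 (1.10 to 1.60) in Pi16 or Car3 cells and 0.82 (0.79 to 0.85) outside the gate. Fosb went from 166 to 412 CPM, with 1.52 (1.08 to 1.99) and 0.55 (0.02 to 1.10) in the 2 cell sets, and Atf3, a stress-induced transcription factor, from 50.5 to 152 CPM, with 1.78 (0.91 to 2.79) and 1.25 (0.43 to 2.15). Hspb1, a small heat shock protein, went from 106 to 298 CPM, but its ratio was 0.13 in clusters 0 and 1. It was 0.51 without the 14 cells and -0.050 with cells thinned to 5000 UMIs. Cells were dissociated by enzymes before capture, and the list was also above 0 outside the gate, with a median of 0.17. The part of handling in these values was not tested.

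Matrix genes differed less as groups in the pooled class, and single genes stood out. Of 13 fibrillar and associated collagens 0 passed the 2-fold limit, and their median log2 ratio was 0.32. In the 38-cell part of cluster 2, 6 of 13 were at least 2-fold higher (Col8a1, Col12a1, Col14a1, Col16a1 and the rule genes Col1a1 and Col1a2) and 0 lower, with a median of 0.76, and 7 of 18 matricellular genes were higher there and 2 lower. Col1a1 stood at 6786 and 8715 CPM, a log2 ratio of 0.36 (0.31 to 0.42), and Col3a1 at 13365 and 10600 CPM, a ratio of -0.33 (-0.38 to -0.29). Without the 14 cells the Col3a1 ratio was -0.08 (-0.13 to -0.04), and in the 38-cell part of cluster 2 it was 0.68 (0.63 to 0.74). Both were used to choose the cells. Of 9 small leucine-rich proteoglycans 0 passed, and Dcn stood at 12170 and 11256 CPM. Basement membrane genes had 1 lower of 15, Col18a1, which went from 175 to 48.2 CPM.

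Elastin was higher in the antibody library. Eln, which encodes the core of elastic fibres, went from 249 CPM (209 to 294) to 822 CPM (766 to 881), a log2 ratio of 1.72 (1.46 to 1.99), with 222 of the 802 antibody UMIs in 1 cell. The share of cells with an Eln UMI did not differ in the same way, at 24 of 57 (42.1%) and 42 of 101 (41.6%), and at 22.8% and 19.2% after thinning to 2000 UMIs. Its log2 ratio was 0.42 (0.02 to 0.84) in clusters 0 and 1, 2.54 (2.18 to 2.92) in cluster 2, 2.22 (2.01 to 2.42) in Pi16 or Car3 cells and 3.45 (3.07 to 3.85) in Acta2 or Tagln cells. The other 15 elastic fibre genes lay within 2-fold, among them the microfibril gene Mfap4 at 242 and 464 CPM (past 2-fold without the 14 cells, a ratio of 1.35) and Fbn1, fibrillin, at 870 and 629 CPM.

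Tnc lay at the other end. This tenascin, a matrix protein of wounds, went from 383 to 35.9 CPM, a log2 ratio of -3.41 (-3.97 to -2.89), but 125 of its 212 control UMIs lay in 1 cell, and a UMI was found in only 11 and 9 cells. Clusters 0 and 1 held 1 and 3 of its UMIs. Among 20 measured matricellular genes Tnc was the 1 at least 2-fold lower, and Ccn3 (41.5 and 97.4 CPM) and Ccn5 (39.7 and 111 CPM) were the 2 higher.

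Timp3, which binds the matrix and inhibits metalloproteinases, was higher in cluster 2 and not in clusters 0 and 1. It went from 193 to 656 CPM, a log2 ratio of 1.76 (1.47 to 2.07). In clusters 0 and 1 it stood at 437 and 396 CPM, a ratio of -0.14 (-0.51 to 0.23), and in cluster 2 at 43.7 and 898 CPM. In the 38-cell part of cluster 2 it stood at 9.97 and 303 CPM, from 3 and 64 UMIs, a ratio of 4.93 (3.32 to 7.24). The 14 cells held 390 of its 640 antibody UMIs, 158 of them in 1 cell, and without them the ratio was 0.98 (0.64 to 1.34). With cells thinned to 5000 UMIs it was 0.20. A Timp3 UMI was found in 49.1% and 67.3% of cells, and in 24.6% and 36.4% after thinning to 2000 UMIs. It was 1 of 14 metalloproteinase and inhibitor genes past the limit. Without the 14 cells 0 of 14 were at least 2-fold higher and 1 lower, Timp1. In cluster 2, 3 of 12 were lower (Mmp2, Mmp3 and Adamts12).

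The other genes with the largest higher values were Trf, Sox9, Phgdh, Cacnb2, Ezr, Uimc1 and Crim1. Trf, the iron carrier transferrin, went from 66.8 to 366 CPM with 176 of 357 antibody UMIs in 1 cell, and without the 14 cells its log2 ratio was -0.46. The transcription factor Sox9 and Ezr, which links membranes to actin, were both at -0.41 without those cells. Phgdh, the first enzyme of serine synthesis, went from 12.6 to 72.8 CPM, and its ratio was 1.17 without them. Uimc1, a ubiquitin-binding protein of the DNA damage response, had low counts, with a UMI in 7 of 57 and 38 of 101 cells and at most 3 in a cell. It went from 14.4 to 55.4 CPM, with log2 ratios of 1.97 (0.49 to 3.93) in clusters 0 and 1 and 1.69 (0.10 to 3.70) in cluster 2. Cacnb2, a calcium channel subunit, went from 34.3 to 120 CPM, and Crim1, a membrane protein that binds bone morphogenetic proteins, from 16.2 to 54.3 CPM. With cells thinned to 5000 UMIs the log2 ratio was 0.52 for Uimc1, 0.17 for Cacnb2, 0.51 for Crim1, 0.85 for Phgdh, 0.75 for Ezr and 0.94 for Trf, all below 2-fold, and 1.39 for Sox9. That run chose its members again after thinning, so its cells differ from those of the other values.

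**Figure D4:**
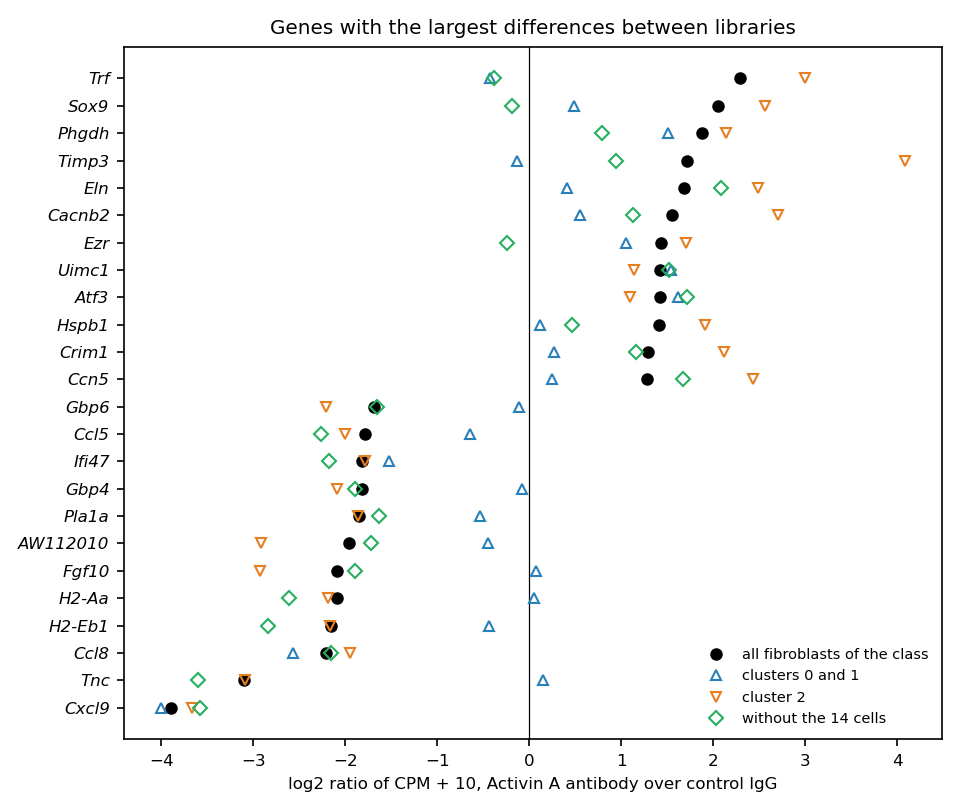
Log2 ratio of CPM plus 10, Activin A antibody over control IgG, of the 12 genes with the highest and the 12 with the lowest values, in all fibroblasts of the class (black), in clusters 0 and 1 (blue), in cluster 2 (orange) and in all but the 14 cells (green). Cxcl9, Ccl8 and Ifi47 were low in every set, Atf3 and Uimc1 high in every set, and Trf, Sox9 and Ezr lay below 0 without the 14 cells.

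Signalling genes included 3 growth factor genes that were at least 2-fold lower, out of 26 measured, of which Fgf10 alone was past 2-fold without the 14 cells. Egfr, the receptor of epidermal growth factor and its relatives, went from 1209 CPM (1119 to 1304) to 503 CPM (460 to 550), a log2 ratio of -1.26 (-1.44 to -1.09), with a UMI in 53 of 57 and 85 of 101 cells. Its ratio was -1.32 (-1.54 to -1.10) in clusters 0 and 1, -1.46 (-1.75 to -1.18) in cluster 2, -0.85 (-1.17 to -0.53) in its 38-cell part, -0.99 (-1.17 to -0.82) without the 14 cells and -0.96 (-1.15 to -0.77) in Pi16 or Car3 cells. Fgf10, a growth factor for epithelia and fat precursors, went from 116 to 19.5 CPM, and its ratio was 0.11 in clusters 0 and 1 from 5 and 12 UMIs. Igfbp5, an insulin-like growth factor binding protein, went from 287 to 121 CPM, with a ratio of -0.84 (-1.20 to -0.49) without the 14 cells. Pla1a, a phospholipase, went from 336 to 86.1 CPM, a ratio of -1.96, with -0.65 (-1.81 to 0.54) in clusters 0 and 1 and -0.93 with cells thinned to 5000 UMIs.

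Of 18 measured genes of the activin and TGF beta pathway, 0 were past the limit in either direction, with a median log2 ratio of 0.04. Over all genes 1.15% were higher and 1.23% lower, so a count of 0 here is near that share. Of 13 measured in cluster 2, 2 were at least 2-fold lower (Tgfbr2 and Fst), and in its 38-cell part 1 of 9 was higher (Gdf10). Inhba, the activin A subunit gene, had 5 UMIs with control IgG and 19 with the antibody in these cells (9.02 and 19.5 CPM), too few for the gene list. The type II activin receptor Acvr2a stood at 66.8 and 82.0 CPM, a log2 ratio of 0.30 (-0.28 to 0.90), and the TGF beta receptor Tgfbr2 at 446 and 275 CPM, a ratio of -0.70 (-0.95 to -0.44). Smad7, a feedback inhibitor that TGF beta family ligands induce, stood at 30.7 and 64.6 CPM from 17 and 63 UMIs, a ratio of 1.07 (0.28 to 1.94), and Pmepa1, another induced inhibitor, at 319 and 326 CPM. Fst, the secreted activin antagonist follistatin, stood at 117 and 92.3 CPM, a ratio of -0.35 (-0.82 to 0.14). Without the 14 cells the Smad7 ratio was 0.64 (-0.30 to 1.63). Cd274, the gene of PD-L1, had 17 and 11 UMIs.

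Of 20 modulators of bone morphogenetic protein, Wnt and hedgehog signalling 1 was lower, the Wnt antagonist Dkk2 at 112 and 49.2 CPM, with a median of -0.05. Of 31 lipid, retinoid and detoxification genes 1 was lower, Apoe at 792 and 334 CPM, with a median of -0.09. In clusters 0 and 1 the Apoe log2 ratio was 0.74.

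**Figure D5:**
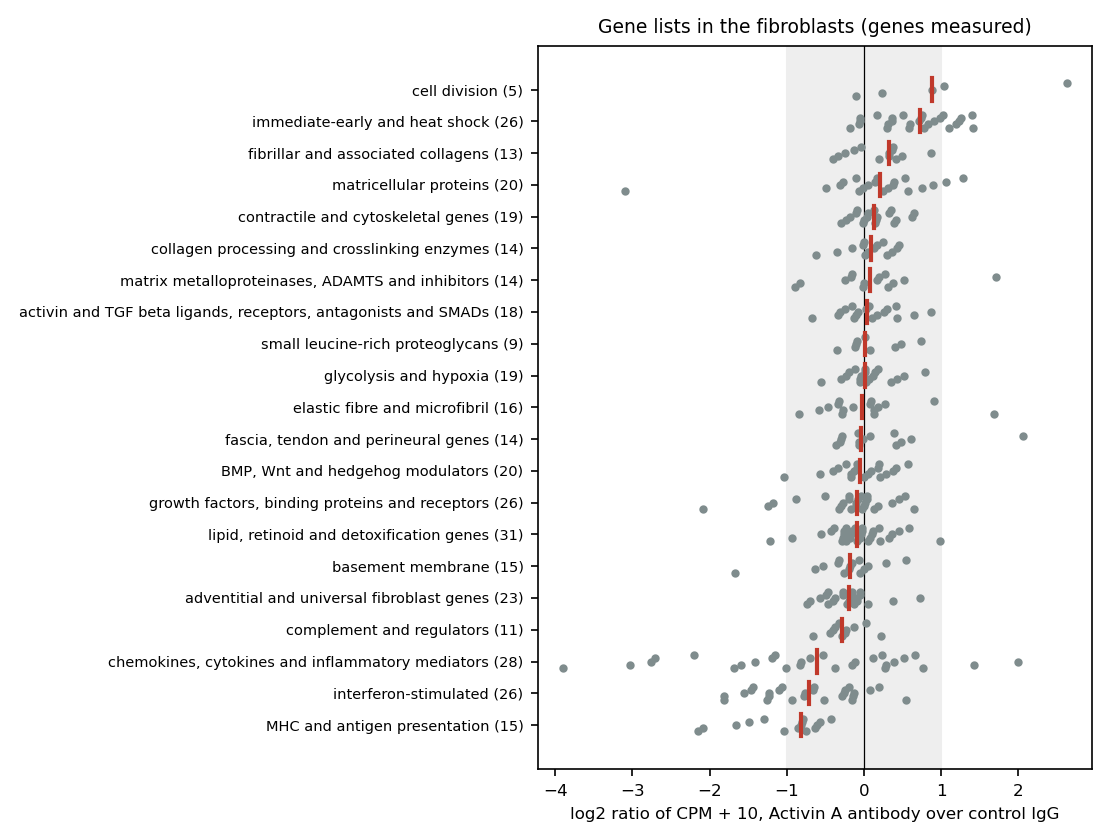
Log2 ratio of CPM plus 10, Activin A antibody over control IgG, for each measured gene (grey points) of 21 gene lists in the fibroblasts without Pi16, Car3 or Acta2, with list medians in red and the range within 2-fold shaded. Antigen presentation (-0.82), interferon-stimulated (-0.71) and chemokine genes (-0.62) had the lowest medians and immediate-early genes (0.73) the highest but for cell division, of which only 5 genes were measured.

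Transcripts of other cell types were low but not equal between the libraries. The 9 macrophage markers summed to 211 CPM with control IgG and 110 CPM with the antibody, with Lyz2 the most abundant with control IgG, and 0 of 9 and 1 of 9 had no UMI. Apart from the 14 cells, which held 95 of the 107 antibody UMIs, they summed to 229 and 17.6 CPM, lower with the antibody like the class II and chemokine genes. The 5 T and NK cell markers summed to 23.5 and 19.5 CPM, the 4 neutrophil markers to 5.41 and 7.18 CPM, the 3 B cell markers to 0 and 1.03 CPM and the 4 dendritic cell markers to 1.80 and 0 CPM. Blood endothelial markers summed to 18.0 and 22.6 CPM with Cdh5 and Emcn at 0, lymphatic markers to 0 and 2.05 CPM, and haemoglobin genes had no UMI. Pecam1 and Cdh5 of the blood endothelial markers were limited by the rule, so their low values follow from it. The 6 mesothelial markers, led by Wt1, summed to 70.4 and 172 CPM with Lrrn4 at 0, from 39 and 168 UMIs. Leaving out the 14 cells left 27 and 15 of these UMIs, the opposite order. Msln, Upk3b and Lrrn4 among these markers were limited by the rule, so their low values follow from it. The 6 cancer markers, led by Mid1, summed to 265 and 241 CPM. Dlk1, Hmga2 and Cdkn2a among them were limited by the rule too.

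Markers of muscle and of special stromal cells completed the picture. Skeletal muscle markers summed to 46.9 and 54.3 CPM, pericyte and smooth muscle markers, led by Abcc9, to 57.8 and 67.7 CPM, Schwann cell markers to 10.8 and 10.3 CPM with Sox10 at 0, and tendon markers, led by Thbs4, to 274 and 388 CPM. Adipocyte markers summed to 123 and 45.1 CPM, led by Fabp4, with Adipoq at 0. The part of such RNA in the differences between the libraries was not tested.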

How the data were processed

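The authors aligned and counted 10x 3′ reads with Cell Ranger and deposited unfiltered matrices of raw UMI counts per gene and barcode, 1 per group. The submitters' processing notes name version 7.0.1 and the mm10 build, while the matrix headers name version 4. The libraries held 98174850 and 74117462 UMIs. A barcode was kept if 1000 to 8500 genes were detected, its UMIs numbered 1000 to 100000 and mitochondrial transcripts took no more than 10% of them, which left 8770 and 6386 cells with medians of 5719 and 4660 UMIs. The libraries shared 19 kept barcodes. Scrublet marked 0 cells in either library and was taken not to have worked, so doublets stayed in.

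Members' counts were summed per library and scaled to CPM. Log2 ratios are the antibody over control IgG. Ratios of single genes carry no pseudocount, and the 2-fold limit, list medians and comparison with other gated cells used CPM plus 10 over genes with at least 50 UMIs in both libraries together. Intervals are Clopper-Pearson for shares, exact Poisson for CPM and conditional binomial for ratios. Clusters came from scanpy 1.11.5 (Leiden, 1000 variable genes, 15 components, 15 neighbours). Single genes named between libraries were the 12 with the highest and the 12 with the lowest ratio that had UMIs in at least 20 members and passed 2-fold without the cell with most UMIs. Other genes named are the given markers, the 12 leading genes over other gated cells, cluster leaders and list members, and Inhba, Cd274, Myoc, Egfr, H2-K1, B2m and further list examples were named with their values known. The members and lists were chosen with earlier results of these data known. Gene positions (99.6% of 32285 IDs) are from GENCODE. The computation of intervals was tested on simulated data.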

Additional observations from a re-analysis of the deposited data

Results flagged for a closer look

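Crim1 differed in direction between cell sets. In the fibroblasts without Pi16, Car3 or Acta2 its log2 ratio of CPM plus 10, antibody over control IgG, was 1.29, from 9 and 53 UMIs, and in the Acta2 or Tagln cells it was -1.20, from 142 and 35 UMIs. The difference between these ratios was not tested.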

How the results depend on the processing

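The larger share of the fibroblasts in the antibody library kept its direction in each alternative run (log2 1.15 to 1.67 of kept cells and 0.48 to 1.05 of gated cells, with the upper ends from clusters 0 and 1 alone). Cluster 2 alone, by contrast, was 25 of 212 and 27 of 237 gated cells. No paired analysis was possible because there was only 1 pooled library a group, and no replicate could be left out.

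The counts of genes at least 2-fold higher and lower (57 and 61) depended on the limits. They were 25 and 40 with cells thinned to 5000 UMIs, 141 and 107 with a minimum of 20 UMIs, 13 and 23 with 200, 202 and 169 with none, 97 and 98 with a pseudocount of 1 and 18 and 32 with 50. In clusters 0 and 1 alone 19 genes were lower, and in cluster 2 alone 94 were higher and 145 lower. Fewer genes pass a minimum in fewer cells. Thinning to 5000 UMIs left out shallower cells and chose the members again from the thinned counts.

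Among marker log2 ratios, thinning gave 0.60 for Cilp, and the mean over cells gave 0.60 for Hmcn2 and 0.37 for Abca8a. Clusters 0 and 1 gave 0.25 for Lsamp, 0.026 for Hmcn2, -0.14 for Abca8a and 0.12 for Cilp. Cluster 2 gave 2.38 (0.65 to 4.76, from 3 and 23 UMIs) for Lsamp, -0.28 for Hmcn2, -0.23 for Abca8a, -1.73 for Inmt and -0.12 for Cilp. Without the 14 cells Lsamp was at 1.03, Hmcn2 at 0.70, Abca8a at 0.53 and Cilp at 0.71.

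Of 287 values of 24 named genes in 12 alternatives 197 stayed within their interval, 80 moved in size and 10 turned direction. These were Trf (-0.18 in cells with no UMI of the excluded genes, -0.53 in clusters 0 and 1 and -0.46 without the 14 cells), Hspb1 (-0.050 thinned), Timp3 (-0.14), Tnc (0.43, interval -3.21 to 6.14), H2-Aa (0.065) and Fgf10 (0.11) in clusters 0 and 1, and Sox9 (-0.41) and Ezr (-0.41) without the 14 cells. The cluster, 14-cell and deepest-cell alternatives were chosen after seeing the data. The cause was not tested. About 1.55% and 1.20% of member UMIs were estimated as free RNA from T cell genes.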

Other observations

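Glycolysis and hypoxia genes had 0 of 19 past the 2-fold limit in either direction and a median of 0.01 in the whole class, and 4 of 17 lower (Pgk1, Pgam1, Eno1 and Ldha) and 0 higher without the 14 cells, with a median of -0.73.

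Complement genes had 0 of 11 past 2-fold (median -0.28), led by C3, the central complement component, at 7696 and 6465 CPM. Adventitial and universal fibroblast genes had 0 of 23 (median -0.19), contractile and cytoskeletal genes 0 of 19 (0.13) and collagen processing and crosslinking enzymes 0 of 14 (0.09). Of 14 fascia, tendon and perineural genes Sox9 alone passed (median -0.04), and without the 14 cells 2 of 13 did, Lsamp higher and Ncam1 lower, with Sox9 at -0.41. Of 5 measured cell division genes 2 were higher, Stmn1 and Ube2c, and 103 of the 105 antibody UMIs of Ube2c, a ubiquitin-conjugating enzyme of mitosis, came from 1 cell. Without the 14 cells 0 of 3 measured were past the limit.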
